A study of Ovis aries with 9 samples.

Results

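The WNT ligands, their agonists, receptors and secreted antagonists, and the core intracellular and nuclear proteins of the pathway, were described in sheep fetal back muscle. Members were taken by name from the table of gene expression: every WNT, frizzled (FZD), SFRP, DKK and R-spondin (RSPO) gene with a number in its name, together with FRZB, WIF1, LRP5, LRP6, ROR1, ROR2, CTNNB1, AXIN1, AXIN2, LEF1, TCF7, TCF7L1 and TCF7L2. The rule for names uses no expression value, although earlier results of these data were known when it was set, and where a name had several loci the locus with the highest mean was used. The rule found 53 names at 59 loci, of 21621 distinct names at 22605 loci in all. They were 18 ligands, 4 R-spondins, 14 receptors and co-receptors, 10 secreted antagonists, 3 intracellular proteins and 4 nuclear factors. RNA came from the longissimus dorsi, the long muscle beside the spine, of Chinese merino fetuses at pregnancy day 85, 105 or 135, hereafter D85, D105 and D135, with 3 libraries a day and 9 in all. Every group had the same breed and tissue, and day is the only difference between groups that the labels name. The labels name no treatment or genetic change. They do not state whether each library had its own fetus, so the p-values measure how far these libraries differ from each other, and that spread may be technical.

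WNT proteins are secreted, lipid-bearing signals that bind frizzled receptors. With the co-receptor LRP5 or LRP6, binding stops the AXIN-based destruction complex from degrading beta-catenin (CTNNB1), which then enters the nucleus and activates genes with TCF and LEF factors; ROR receptors and WNT5A serve routes that do not need beta-catenin. SFRP proteins, FRZB and WIF1 bind WNTs outside the cell, DKK1 and DKK2 bind LRP5 and LRP6, and R-spondins raise receptor levels by removing the ligases ZNRF3 and RNF43. In skeletal muscle the pathway is known for its roles in the formation of myogenic cells in the embryo, in satellite cells (the resident muscle stem cells) and in fibre growth.

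Values are FPKM, the authors' fragments per kilobase of gene model scaled to the number of mapped fragments. That scaling is meant to let levels be set side by side between genes and libraries. Comparisons with D135 also depend on the shift of most loci described below. FPKM hold no read totals. The steps between low values gave the depth of each library relative to D85 replicate 1, and this ran from 0.993 to 1.20, with the D135 libraries deepest at 1.12 to 1.20. The sum of FPKM was 395797 to 489270 a library, and 2767 to 3249 loci a library were listed at 0. Over the 13086 loci with at least 1 FPKM in at least 3 libraries, the median log2 difference of FPKM + 1 was -0.02 from D85 to D105, -0.33 from D105 to D135 and -0.35 over the whole span from D85 to D135. Most loci were thus listed lower at D135 than earlier. Tests that passed at D135 are therefore given as deposited and also after median-of-ratios scaling, which divides a library's FPKM by the median ratio of its loci to their geometric mean over libraries. After it the medians were 0.02 and 0.01 for the comparisons with D135. Levels, sums and statements on overlap between libraries are as deposited unless said otherwise. Adding 1 FPKM before taking logs understates the changes of loci with low levels.

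Of the 53 names, 30 passed the filter of 1 FPKM in 3 libraries and were tested, and 16 were at 1 FPKM or more in all 9 libraries. Of these 30, WNT16 passed through D105 only, AXIN2, WNT4 and FZD1 through D85 and D105 only, and RSPO3 through D85 and D135 only. The highest mean at D85 was that of CTNNB1, 50.8 FPKM ± 4.67 (SD, n = 3). LRP6 followed at 21.8 ± 2.13, then LRP5 at 12.8 ± 1.79, FZD4 at 12.3 ± 3.77, DKK3 at 12.1 ± 2.39 and SFRP1 at 10.9 ± 0.886. From LRP5 to SFRP1 these neighbours lay within each other's spread. No ligand mean exceeded 5.64 FPKM on any day. At D135 the order began with CTNNB1 at 40.3 ± 1.77 and LRP6 at 14.8 ± 1.29. DKK2 came next at 12.1 ± 6.85 and FZD4 at 10.5 ± 7.66, and their spreads overlap with LRP6. By mean level, DKK2 was number 22 of the 30 at D85, number 14 at D105 and number 3 at D135, whereas SFRP1 went from 6 to 7 to 12 and DKK3 from 5 to 4 to 11. The 23 other names reached a highest mean over the 9 libraries of 0.741 FPKM (SFRP5) and a highest single value of 2.42 (FZD9 in D135 replicate 1).

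**Figure D1:**
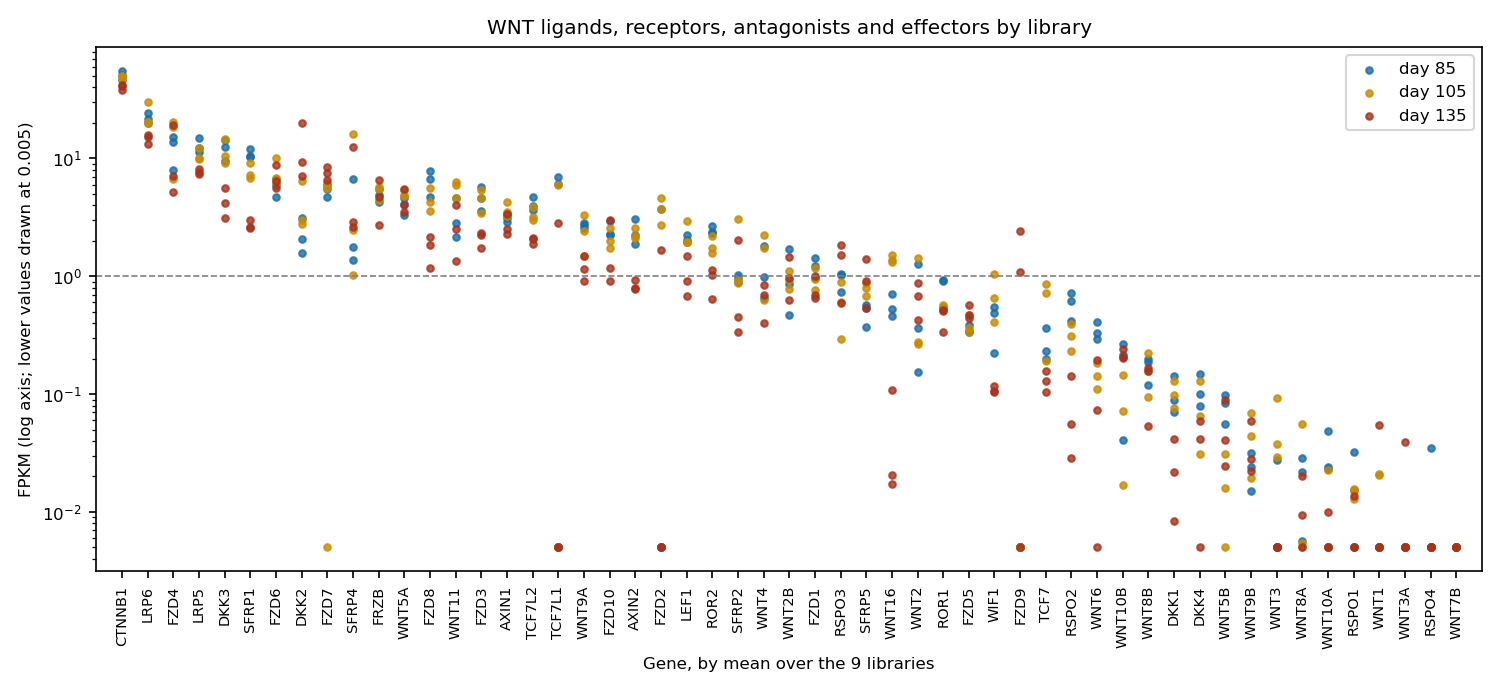
Level of all 53 WNT pathway names in each library, as FPKM on a log axis, ordered by mean level and coloured by day. Values under 0.005 are drawn at 0.005 and the dashed line marks 1 FPKM. CTNNB1 stands highest on every day, with means of 50.8, 49.3 and 40.3 FPKM, most ligands lie below 1 FPKM, and WNT16 at D135 lies far below its D105 points.

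Between D85 and D105 no tested member passed the threshold (adjusted p under 0.05, limma with Benjamini-Hochberg adjustment over all 13086 loci), where 0.199% of all tested loci did. Unadjusted p was under 0.05 for 2 of the 30, WNT16 at 0.000612 and SFRP1 at 0.00592. From D105 to D135, 1 member rose (DKK2), 14 fell and 15 did not pass. Of all tested loci 4.47% rose and 35.0% fell, against 3.33% and 46.7% of the tested members, and the median log2 difference was -0.48 for the members and -0.33 for all loci. From D85 to D135, 1 member rose (DKK2), 13 fell and 16 did not pass, that is 3.33% and 43.3%, where 6.90% of all tested loci rose and 39.7% fell. The median was -0.36 for the members and -0.35 for all loci. As deposited, the share of WNT genes that fell between D85 and D135 thus lay near that of all loci.

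After median-of-ratios scaling 28 of the 30 members remained above the filter. From D105 to D135, 1 rose (DKK2) and 4 fell (WNT16, SFRP1, DKK3 and AXIN2). That was 3.57% and 14.3% of the members, where 10.9% of all loci rose and 6.94% fell. From D85 to D135, 2 rose (DKK2 and WNT5A) and 7 fell (SFRP1, DKK3, FZD8, ROR2, AXIN2, TCF7L2 and WNT16). That was 7.14% and 25% of the members, where 15.3% of all loci rose and 12.5% fell. The members' median was then -0.18 and -0.14. Of all tested loci, 47.7% had every D135 library below every D105 library and 6.43% above, and 48.8% had every D135 library below every D85 library and 9.42% above. A lack of overlap on the lower side at D135 was therefore common. These shares cover tested loci only. No such share is given for D105 against D85, so a lack of overlap between those days has no background beside it. The first and second comparison share the D105 libraries and the third shares libraries with both, so the comparisons are not independent of each other. In bulk tissue, fewer cells of a type and less RNA per cell cannot be told apart.

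**Figure D2:**
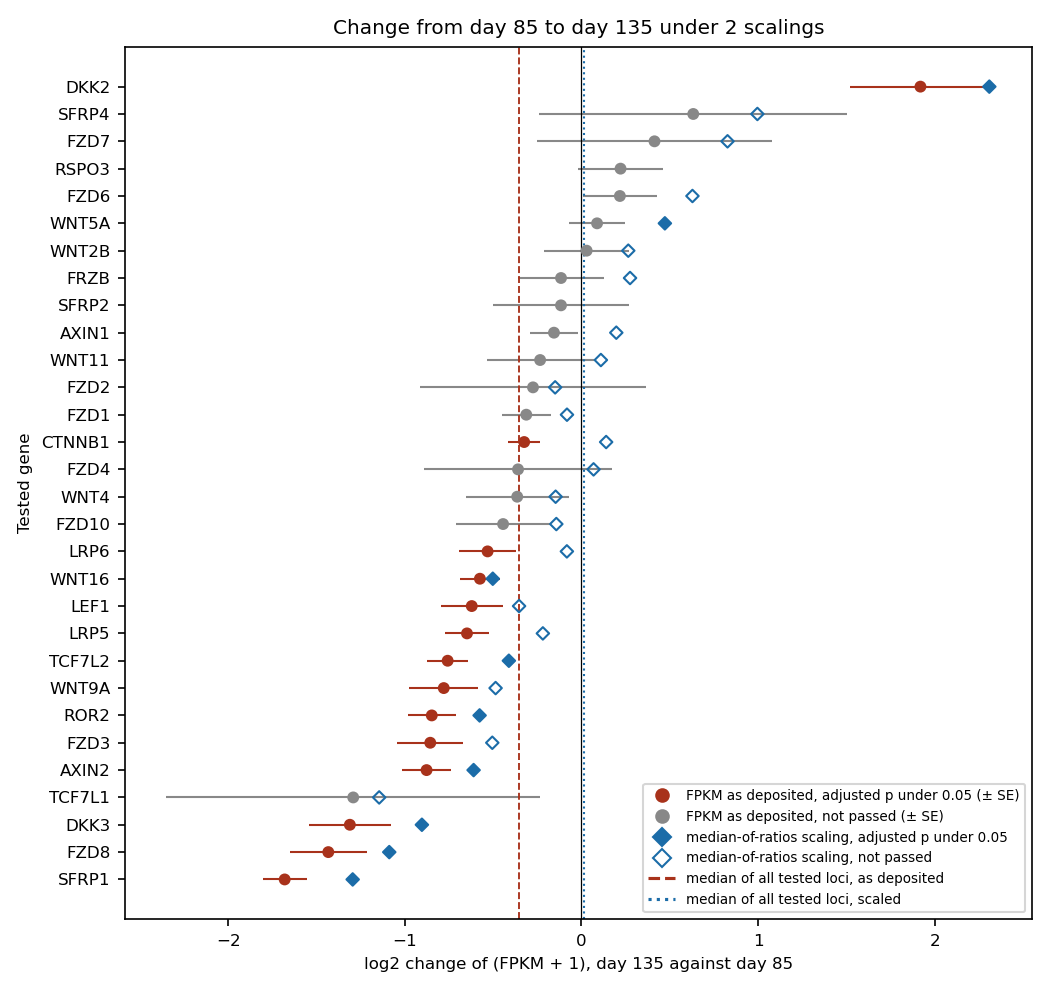
Difference between D135 and D85 in log2(FPKM + 1) for the 30 tested members, as deposited (circles with SE; red passed adjusted p under 0.05, grey did not) and after median-of-ratios scaling (diamonds, filled where passed); the dashed and dotted lines are the medians of all loci on each scale. DKK2 lies alone on the far right at 1.92 and SFRP1 farthest to the left at -1.68.

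Among the ligands, 6 of 18 were tested. WNT5A, a ligand of ROR2 that shapes tissues largely without beta-catenin, had the highest ligand mean at D85. It measured 4.07, 4.59 and 3.31 FPKM in the 3 D85 libraries, 4.91, 4.75 and 5.40 at D105, and 5.52, 3.48 and 4.03 at D135. Each D105 library was above each D85 library, by a log2 difference of 0.28 with adjusted p = 0.529, while D135 overlapped with both days. Against D85 the D135 difference was 0.09 (adjusted p = 0.676) as deposited. After median-of-ratios scaling it was 0.47 and passed (adjusted p = 0.0370), and after quantile normalization adjusted p was 0.0517.

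WNT11, a ligand known for directing cell polarity and fibre orientation, measured 4.57, 2.85 and 2.16 FPKM at D85, 6.36, 5.96 and 4.61 at D105, and 4.02, 2.52 and 1.35 at D135. All D105 libraries stood above those of the other days, and D85 and D135 overlapped. WNT11 did not pass between D85 and D105 (log2 0.70 ± 0.30 SE, adjusted p = 0.405). From D105 to D135 it fell by 0.93 ± 0.30 on the log2 scale (adjusted p = 0.0414), a call lost in 6 of the 9 fits that each leave out a library, with adjusted p up to 0.109 without D135 replicate 3, and lost with median-of-ratios scaling (log2 -0.58, adjusted p = 0.225).

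WNT16, a ligand known from somites, bone and joints, was low on all days and differed between D105 and D135 by the greatest factor among the tested members. It measured 0.464, 0.524 and 0.705 FPKM at D85, 1.32, 1.36 and 1.51 at D105, and 0.109, 0.0171 and 0.0205 at D135. No library of one day overlapped with those of another, and the D135 mean was 0.0349 times the D105 mean. Since WNT16 entered the test through D105 alone, some difference from D105 was built into its selection. It fell from D105 to D135 by 1.19 ± 0.11 on the log2 scale (adjusted p = 0.000841, and 0.00146 with median-of-ratios scaling), and from D85 to D135 by 0.57 ± 0.11 (adjusted p = 0.00479, and 0.0164 scaled). Both falls passed in each of the 15 alternative fits that could test it. Leaving out any D105 library put it below the filter. The log2 difference of D105 over D85, 0.62 ± 0.11, had adjusted p = 0.117, and 0.0394 where no filter on low values was used. The contrast of the interval D105 to D135 with the interval D85 to D105 was -1.81 ± 0.20 for WNT16 (adjusted p = 0.0170). It was the single tested member to pass that contrast, and no member passed it without D135 replicate 2 or with a pseudocount of 0.1. The contrast was one that 0.352% of all loci passed, and 9 of the 30 members had an unadjusted p under 0.05.

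WNT9A, a ligand known from joint and limb formation, measured 2.73, 2.59 and 2.85 FPKM at D85, 2.42, 1.49 and 3.29 at D105, and 1.15, 0.913 and 1.48 at D135. Its D135 libraries were all below those of the other days. WNT9A fell from D85 to D135 by 0.78 ± 0.20 on the log2 scale (adjusted p = 0.0133, and 0.111 with median-of-ratios scaling). The fall from D105 to D135 of 0.61 ± 0.20 (adjusted p = 0.0391) was lost in 7 of 9 fits that leave out a library, with adjusted p up to 0.120 without D135 replicate 2, and with median-of-ratios scaling (0.296). WNT4 ranged from 0.400 to 2.24 FPKM and WNT2B from 0.471 to 1.70, and neither passed in any comparison as deposited.

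The 12 ligands below the filter included WNT2, with means of 0.595, 0.656 and 0.662 FPKM on the 3 days, and WNT6, with 0.343, 0.145 and 0.0892. WNT10B had means of 0.175, 0.0779 and 0.216, and WNT8B 0.167, 0.157 and 0.125. WNT1, WNT3, WNT3A, WNT5B, WNT8A, WNT9B and WNT10A had day means of at most 0.0794 FPKM, and WNT7B was listed at 0 in every library. The ligands of this muscle that reached 1 FPKM thus belonged to few names, led by WNT5A, WNT11 and WNT9A. The sum over the 18 ligands was 11.3 to 16.6 FPKM at D85, 17.4 to 18.6 at D105 and 9.69 to 13.7 at D135, so that the D105 libraries held the highest ligand sums as deposited. After median-of-ratios scaling the sums were 10.5 to 14.5, 15.2 to 16.6 and 11.9 to 16.2 FPKM, and D105 and D135 overlapped.

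R-spondins amplify WNT signals through LGR receptors. RSPO3 was the only one tested and measured 1.05, 1.03 and 0.731 FPKM at D85, 0.607, 0.901 and 0.293 at D105, and 1.84, 0.595 and 1.53 at D135. The days overlapped, with D135 replicate 2 low beside the other D135 libraries. The log2 difference of D135 over D105 was 0.51 (adjusted p = 0.121), and it passed without D135 replicate 2 (log2 0.76, adjusted p = 0.0302) and after quantile normalization (log2 0.81, adjusted p = 0.0472). Since RSPO3 entered the test through D85 and D135 only, some difference of D135 from D105 was built into its selection. After median-of-ratios scaling RSPO3 was below the filter. RSPO2, below the filter, measured 0.619, 0.417 and 0.725 FPKM at D85, 0.392, 0.312 and 0.233 at D105, and 0.0287, 0.0562 and 0.143 at D135. No pair of days overlapped, but the shares of loci without overlap cover tested loci only. RSPO1 and RSPO4 had means of at most 0.0159 FPKM.

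**Figure D3:**
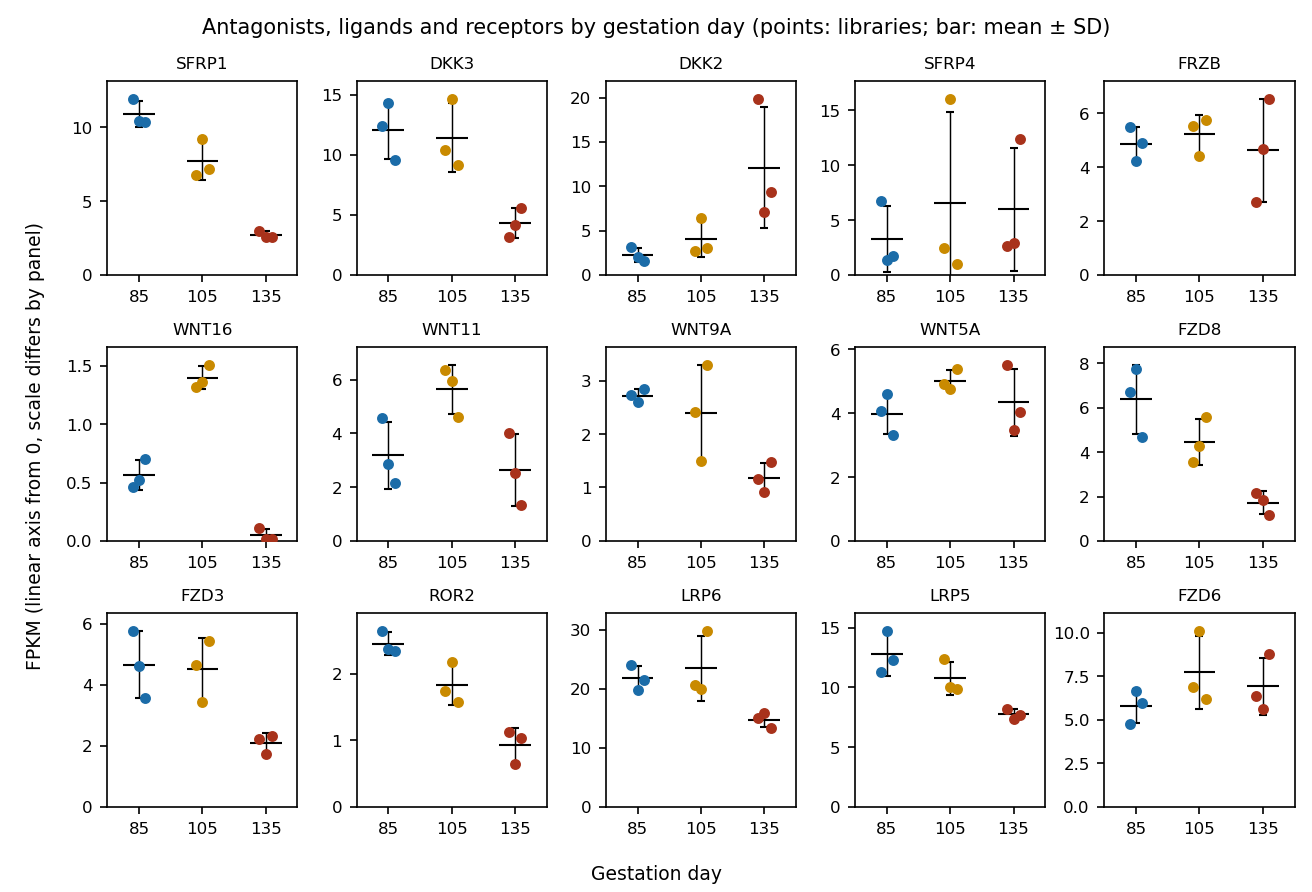
FPKM of 15 members in each library (points), with the mean and SD of the 3 libraries of a day, on linear axes that start at 0, where the SD bars of SFRP4 at D105 and WNT16 at D135 are cut. SFRP1 and DKK3 stand lower at D135 (2.57 to 2.995 and 3.15 to 5.61 FPKM), DKK2 stands higher (7.05 to 19.9 FPKM), and SFRP4 shows 1 high library on each day.

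Of the 14 receptors and co-receptors, 11 were tested. From D85 to D135 none rose and 5 fell as deposited, of which 2 (FZD8 and ROR2) also fell after median-of-ratios scaling. The 45.5% of tested receptors that fell stood near the 39.7% of all loci as deposited, and the 2 that fell after scaling stand beside 12.5% of all loci. From D105 to D135 the same number, 5, fell as deposited, where 35.0% of all loci did, and none after scaling, where 6.94% did. LRP6, the co-receptor with the highest level here, measured 24.1, 19.8 and 21.5 FPKM at D85, 20.6, 19.9 and 29.9 at D105, and 15.1, 15.9 and 13.4 at D135. LRP5 measured 11.3, 14.8 and 12.3 at D85, 12.3, 10.0 and 9.88 at D105, and 8.20, 7.37 and 7.69 at D135. In both, each D135 library lay below every earlier one.

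LRP6 fell from D85 to D135 by 0.53 ± 0.16 on the log2 scale (adjusted p = 0.0277), a call lost in 4 of 9 fits with a library left out, at 0.0850 without D85 replicate 1, 0.0600 without D85 replicate 3, 0.0579 without D135 replicate 1 and 0.0833 without D135 replicate 3. Its fall from D105 of 0.61 ± 0.16 (adjusted p = 0.0197) was lost without D135 replicate 3 (0.0610). LRP5 fell from D85 by 0.65 ± 0.12 (adjusted p = 0.00429). Its fall from D105 of 0.42 ± 0.12 (adjusted p = 0.0302) was lost without D105 replicate 1 (0.0897), D135 replicate 2 (0.0905) or D135 replicate 3 (0.0719). With median-of-ratios scaling the differences from D85 were -0.08 for LRP6 (adjusted p = 0.765) and -0.22 for LRP5 (adjusted p = 0.213). On that scale neither co-receptor passed from D105 either, with adjusted p of 0.539 and 0.981.

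FZD8, a frizzled receptor able to signal with LRP6, fell by the most among the receptors that passed. It measured 6.70, 7.76 and 4.68 FPKM at D85, 3.56, 4.26 and 5.57 at D105, and 2.17, 1.83 and 1.17 at D135. FZD8 fell from D85 to D135 by 1.43 ± 0.22 on the log2 scale (adjusted p = 0.00156, and 0.00616 with median-of-ratios scaling), to 0.270 times the D85 mean. Its fall from D105 was 1.005 ± 0.22 (adjusted p = 0.00961) as deposited and did not pass after scaling (log2 -0.68, adjusted p = 0.0562). A second locus of the name was listed at 8.74 FPKM in D105 replicate 2 and at 0 in the other libraries, and was not used.

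ROR2, a receptor for WNT5A, measured 2.65, 2.38 and 2.34 FPKM at D85, 1.74, 2.18 and 1.58 at D105, and 1.12, 0.639 and 1.03 at D135. No library of one day overlapped with those of another. The difference of D105 from D85 did not pass (adjusted p = 0.439). ROR2 fell from D85 to D135 by 0.85 ± 0.14 on the log2 scale (adjusted p = 0.00192, and 0.0130 scaled) and from D105 by 0.56 ± 0.14 (adjusted p = 0.0146, and 0.151 scaled). The lower receptor stood beside a WNT5A level that overlapped between D85 and D135. ROR1, the related receptor, was below the filter with means of 0.797, 0.550 and 0.454 FPKM.

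FZD3, a receptor known for axon guidance and planar polarity, measured 5.77, 4.61 and 3.57 FPKM at D85, 4.65, 3.43 and 5.44 at D105, and 2.23, 1.73 and 2.32 at D135. It fell from D85 by 0.86 ± 0.19 on the log2 scale (adjusted p = 0.00744) and from D105 by 0.82 ± 0.19 (adjusted p = 0.0117). With median-of-ratios scaling neither passed, at log2 -0.50 (adjusted p = 0.0694) and -0.48 (adjusted p = 0.105). As deposited, each D135 library was below each library of the earlier days.

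Other frizzled genes did not follow that pattern. FZD4, a receptor known from blood vessels, varied widely within a day, at 8.04, 15.1 and 13.8 FPKM at D85, 6.74, 20.2 and 18.5 at D105, and 19.3, 7.08 and 5.23 at D135, and passed in no comparison. FZD6 measured 4.74 to 6.67 FPKM at D85, 6.20 to 10.1 at D105 and 5.64 to 8.78 at D135 and did not pass, with adjusted p = 0.0546 from D85 to D135 after scaling (log2 0.63). FZD7, a receptor reported in satellite cells, measured 5.47, 5.94 and 4.74 at D85, 6.21, 5.61 and 0 at D105, and 6.59, 8.45 and 7.50 at D135. Its D135 libraries were the highest of the 9, but the differences did not pass as deposited, with adjusted p of 0.639 from D85 and 0.176 from D105, nor after scaling (0.376 and 0.129). The 0 in D105 replicate 3 may be a failed estimate.

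FZD2 was likewise listed at 0 in several libraries, at 0, 3.69 and 0 FPKM at D85, 4.62, 2.70 and 3.72 at D105, and 0, 0 and 1.65 at D135, and missed the threshold between D105 and D135 (adjusted p = 0.0619, and 0.139 scaled). FZD1 ranged from 0.656 to 1.43 FPKM and missed it between D85 and D135 (adjusted p = 0.0991, and 0.685 scaled). FZD10 ranged from 0.915 to 2.99 and did not pass. FZD5 and FZD9 were below the filter, and FZD9 was listed at 0 in 7 libraries, with 2.42 and 1.08 FPKM in D135 replicates 1 and 2. The sum over receptors and co-receptors was 73.4 to 85.1 FPKM at D85, 71.1 to 85.0 at D105 and 51.6 to 68.4 at D135. After scaling these sums were 64.6 to 72.3, 63.7 to 76.6 and 63.5 to 80.5 FPKM, and the days overlapped.

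The secreted antagonists moved in opposite directions. SFRP1, which binds WNTs and keeps them from frizzled receptors, measured 11.95, 10.5 and 10.4 FPKM at D85, 6.79, 9.20 and 7.19 at D105, and 2.995, 2.60 and 2.57 at D135. No library of one day overlapped with those of another, and levels were lower at each later day. The first step, a log2 difference of -0.46 ± 0.12, did not pass (adjusted p = 0.198). SFRP1 fell from D105 to D135 by 1.22 ± 0.12 on the log2 scale (adjusted p = 0.000945, and 0.00262 with median-of-ratios scaling), and from D85 to D135 by 1.68 ± 0.12 (adjusted p = 0.000143, and 0.000269 scaled), to 0.249 times the D85 mean. Both falls passed in all 19 alternative fits that tested it.

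DKK3, a DKK family member that does not share the LRP6 binding of DKK1 and DKK2, measured 12.4, 14.3 and 9.55 FPKM at D85, 10.4, 14.7 and 9.18 at D105, and 3.15, 4.16 and 5.61 at D135. D85 and D105 overlapped and every D135 library was below both. DKK3 fell from D105 by 1.23 ± 0.23 on the log2 scale (adjusted p = 0.00580, and 0.0373 scaled) and from D85 by 1.31 ± 0.23 (adjusted p = 0.00292, and 0.0196 scaled). Both falls passed in all 19 alternative fits that tested it.

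DKK2, which binds LRP5 and LRP6, went the other way, at 3.11, 2.06 and 1.56 FPKM at D85, 2.75, 6.41 and 2.99 at D105, and 19.9, 7.05 and 9.35 at D135. The D135 libraries were all above the earlier ones, with D135 replicate 1 far above the other D135 libraries and D105 replicate 2 close to the lowest of them. DKK2 rose from D85 to D135 by 1.92 ± 0.40 on the log2 scale (adjusted p = 0.00586, and 0.00308 with median-of-ratios scaling), a 5.39-fold higher mean, and this call held in all 20 alternative fits, with an adjusted p of at most 0.0209. The rise from D105, 1.32 ± 0.40 (adjusted p = 0.0316, and 0.0174 scaled), was lost in 4 of the 9 fits that leave out a library, at 0.0933 without D105 replicate 1, 0.0873 without D105 replicate 3, 0.0724 without D135 replicate 1 and 0.0555 without D135 replicate 3. It was also lost without a filter on low values (0.0511) and with only the 6 libraries compared (0.0569). Within a library, the ratio of DKK3 to DKK2 in FPKM was 3.99, 6.94 and 6.12 at D85, 3.79, 2.29 and 3.07 at D105, and 0.158, 0.590 and 0.600 at D135, which does not depend on a library's scaling.

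Other antagonists showed no call as deposited. SFRP4 measured 6.73, 1.37 and 1.76 FPKM at D85, 2.47, 16.1 and 1.03 at D105, and 2.64, 2.87 and 12.4 at D135, with 1 library of each day far above the others. Those libraries, D85 replicate 1, D105 replicate 2 and D135 replicate 3, also held the highest summed FPKM of 8 fibroblast markers of their day, at 3309, 6848 and 3424. The same libraries held the highest sums of leukocyte markers of their day, at 30.9, 31.9 and 20.7 FPKM. D105 replicate 2 was also the highest of its day in the sums of tendon, cartilage and bone, and adipocyte markers. The part of other cell types in the SFRP4 values was not tested. FRZB, an SFRP family member known from cartilage, measured 4.24 to 5.48 FPKM at D85, 4.40 to 5.73 at D105 and 2.70 to 6.52 at D135 and did not pass. SFRP2 ranged from 0.336 to 3.09 FPKM. SFRP5, WIF1, DKK1 and DKK4 were below the filter, with WIF1 at means of 0.420, 0.702 and 0.109 FPKM.

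Inside the cell, CTNNB1 (beta-catenin, which also links cadherins to actin) measured 55.3, 46.0 and 51.0 FPKM at D85, 47.6 to 50.3 at D105, and 40.8, 38.3 and 41.7 at D135. Its D135 libraries were below all others as deposited, and CTNNB1 fell from D85 by 0.32 ± 0.09 on the log2 scale (adjusted p = 0.0205) and from D105 by 0.29 ± 0.09 (adjusted p = 0.0385). With median-of-ratios scaling the direction turned, to 0.14 (adjusted p = 0.337) and 0.17 (adjusted p = 0.302), neither of which passed. The fall from D105 was also lost in 7 of 9 fits with a library left out, up to adjusted p = 0.115 without D135 replicate 2, and that from D85 without D85 replicate 1 (0.0656), D85 replicate 3 (0.0523) or D135 replicate 2 (0.0682). RNA levels say nothing of the protein's stability, through which the pathway acts.

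AXIN2, a destruction complex scaffold and a widely used target gene of beta-catenin signalling, measured 1.89, 3.07 and 2.25 FPKM at D85, 2.12, 2.55 and 2.21 at D105, and 0.777, 0.799 and 0.930 at D135. D85 and D105 overlapped, and each D135 library was below all of them. AXIN2 fell from D85 by 0.88 ± 0.14 on the log2 scale (adjusted p = 0.00190, and 0.0106 with median-of-ratios scaling) and from D105 by 0.84 ± 0.14 (adjusted p = 0.00393, and 0.0191 scaled), to 0.348 times the D85 mean. Both calls held in all 18 alternative fits. AXIN2 passed the filter through D85 and D105 only, so that a lower level at D135 was built into its selection. AXIN1, its relative that is not known as a target gene, measured 3.11, 3.34 and 2.88 at D85, 3.52, 3.26 and 4.25 at D105, and 3.36, 2.27 and 2.52 at D135. The days of AXIN1 overlapped at D135, and its adjusted p was 0.0814 from D105 and 0.379 from D85 as deposited, and 0.971 and 0.287 after scaling.

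Of the nuclear factors, LEF1, which brings beta-catenin to DNA and is itself a target gene, measured 1.93, 2.25 and 2.03 FPKM at D85, 1.94, 1.94 and 2.92 at D105, and 1.48, 0.683 and 0.904 at D135. Its D135 libraries were all below the earlier ones. LEF1 fell from D105 by 0.70 ± 0.18 on the log2 scale (adjusted p = 0.0165, lost at 0.0565 without D135 replicate 2). It fell from D85 by 0.62 ± 0.18 (adjusted p = 0.0211), and this was lost without D85 replicate 2 (0.0615), D135 replicate 2 (0.0707) or D135 replicate 3 (0.0607). With median-of-ratios scaling neither fall passed (adjusted p = 0.128 and 0.176).

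TCF7L2, a factor of the same family, measured 3.97, 4.74 and 3.66 FPKM at D85, 3.17, 3.83 and 3.01 at D105, and 2.12, 1.87 and 2.07 at D135. It fell from D85 by 0.76 ± 0.12 on the log2 scale (adjusted p = 0.00169, and 0.0178 scaled) and from D105 by 0.52 ± 0.12 (adjusted p = 0.0111, and 0.239 scaled). TCF7L2 has 3 loci in the table, the others listed at 0 in 5 and 8 of the 9 libraries, and with the loci summed neither fall passed (adjusted p = 0.286 from D85 and 0.146 from D105). TCF7L1 has 2 loci. The one with the higher mean was listed at 0 in 5 libraries and did not pass. The other measured 1.67, 3.16 and 2.30 FPKM at D85, 2.26, 1.95 and 1.80 at D105, and 0.929, 0.652 and 0.877 at D135. Where that locus stood for the name, TCF7L1 fell by 0.87 from D85 (adjusted p = 0.00440) and by 0.72 from D105 (adjusted p = 0.0126). That locus passed the filter through D85 and D105 only, so that a lower level at D135 was built into its selection. TCF7, at means of 0.266, 0.591 and 0.131 FPKM, was below the filter.

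A list of 86 other pathway genes, grouped by step of the pathway, matched 82 names here, of which 62 were tested. From D85 to D105 none passed, with 10 at an unadjusted p under 0.05. From D105 to D135 none rose and 36 fell (58.1%, median log2 -0.52), and from D85 to D135 none rose and 42 fell (67.7%, median -0.63), against 35.0% and 39.7% of all loci. After median-of-ratios scaling 6 fell and none rose from D105, and 13 fell and 2 rose (PYGO1 and TNKS2) from D85, of 60. On that scale 6.94% of all loci fell and 10.9% rose from D105, and 12.5% fell and 15.3% rose from D85. As deposited, all 4 tested genes of ligand secretion and removal and of R-spondin receptors and receptor turnover fell from D85 to D135. The same held for 7 of 10 other surface partners, 10 of 17 genes of signal transduction and the destruction complex, 10 of 13 nuclear cofactors, 5 of 8 planar cell polarity genes and 6 of 10 often used target genes. After scaling the counts that fell were 2 of the 4, 4 of 9 surface partners, 4 of 16 genes of signal transduction, 1 of 13 nuclear cofactors, 1 of 8 planar cell polarity genes and 1 of 10 target genes. The risers PYGO1 and TNKS2 were a nuclear cofactor and a gene of signal transduction. NOTUM, NKD1, ZNRF3 and SP5 passed the filter through D85 and D105 only, where they are high, so that a lower level at D135 was built into their selection.

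NOTUM, a secreted enzyme that inactivates WNTs by removing their lipid and that is itself a target gene, measured 1.39, 2.85 and 2.31 FPKM at D85, 1.27, 0.683 and 1.54 at D105, and 0.0529, 0.0547 and 0.0383 at D135. It fell from D85 to D135 by 1.57 ± 0.21 on the log2 scale (adjusted p = 0.000946, and 0.00173 scaled). NKD1, an intracellular inhibitor induced by the pathway, measured 1.53, 2.40 and 1.74 at D85, 0.996, 1.61 and 1.51 at D105, and 0.0776, 0.173 and 0.368 at D135, and fell by 1.26 ± 0.17 (adjusted p = 0.000957, and 0.00242 scaled). For both, each D135 library was below every earlier one. ZNRF3, a ligase that removes frizzled receptors, chosen after its values were seen, measured 0.822 to 1.42 FPKM at D85 and D105 and 0.378 to 0.415 at D135. It fell by 0.64 ± 0.12 from D85 (adjusted p = 0.00385, and 0.0226 scaled). SP5, a nuclear repressor and target gene, measured 0.549 to 2.67 FPKM at D85, 0.666 to 2.59 at D105 and 0.0670 to 0.299 at D135. Its fall from D85 of 1.14 ± 0.36 (adjusted p = 0.0326) was lost in 5 of 9 fits that leave out a library, up to 0.0999 without D85 replicate 1, and with scaling (0.0675).

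**Figure D4:**
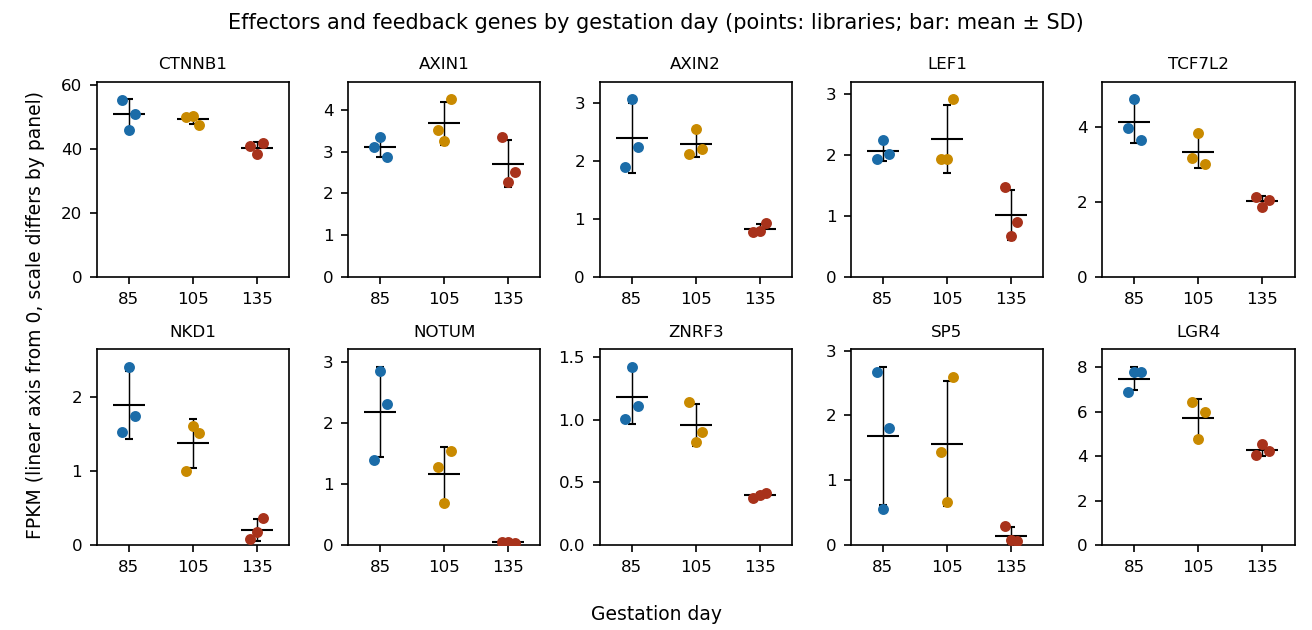
FPKM in each library of CTNNB1, AXIN1, AXIN2, LEF1 and TCF7L2 and of 5 other pathway genes (NKD1, NOTUM, ZNRF3, SP5 and LGR4), with the mean and SD of the 3 libraries of a day, on linear axes that start at 0. As deposited, all genes shown except AXIN1 stand lower in every D135 library than in any earlier one, while the AXIN1 libraries of the days overlap. Of all tested loci, 48.8% had every D135 library below every D85 library, and 47.7% below every D105 library.

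Of the surface partners, GPC3, a glypican that binds WNTs at the cell surface, measured 26.8, 39.2 and 34.4 FPKM at D85, 22.7, 13.7 and 20.3 at D105, and 5.21, 6.19 and 13.2 at D135. It fell from D85 to D135 by 1.99 ± 0.33 on the log2 scale (adjusted p = 0.00213, and 0.0116 scaled). PTK7, a co-receptor known for planar polarity, went from a mean of 15.0 to 11.2 to 4.55 FPKM and fell from D85 by 1.52 ± 0.14 (adjusted p = 0.000256, and 0.00123 scaled). LRP4, a receptor for agrin that also binds WNT antagonists, had means of 16.1, 12.2 and 6.07, and the glypican GPC4 6.44, 3.76 and 2.20. DVL2, which relays the signal from frizzled receptors, had means of 8.05, 6.39 and 2.92 FPKM, and SCRIB, a polarity scaffold, 10.3, 9.79 and 4.01. LRP4, GPC4, DVL2 and SCRIB fell from D85 to D135 by 1.16 to 1.27 on the log2 scale, with adjusted p of 0.00224 or less as deposited and 0.0185 or less after scaling. Of the often used target genes, CD44 had means of 21.3, 13.4 and 8.73 FPKM and fell by 1.21 (adjusted p = 0.000542, and 0.00743 scaled). The cell adhesion gene CDH11 fell by 1.02 (adjusted p = 0.00607, and 0.0844 scaled), and CCND1, which encodes cyclin D1, by 0.93 (adjusted p = 0.0152, and 0.103 scaled), the latter lost without D85 replicate 1 (0.0515) or D135 replicate 2 (0.0509).

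Markers of the cell types that a muscle sample can hold moved with the days as well. The 7 markers of skeletal muscle, the labelled tissue, summed to 6304 to 8441 FPKM at D85, 7763 to 10740 at D105 and 15070 to 18540 at D135. By the test 3 of the 7 were higher at D135 than at D85. MYOD1 was lower (log2 -0.80, adjusted p = 0.0115, and 0.175 scaled). After scaling 5 were higher and 0 lower. The sum of 4 satellite cell markers was 21.1 to 37.9 FPKM at D85, 9.24 to 30.3 at D105 and 3.69 to 5.57 at D135, and the 3 of them tested (PAX7, MYF5 and CDH15) fell from D85 to D135, as did 2 after scaling. PAX3, the other marker, was below the filter and listed higher at D135, at 1.104, 0.112 and 0.207 FPKM against 0 to 0.0726 in the earlier libraries. Among them PAX7, which marks satellite cells, went from a mean of 2.82 to 1.97 to 0.518 FPKM (adjusted p = 0.000738 for D135 against D85, and 0.00170 scaled). PAX7 passed the filter through D85 and D105 only, so that a lower level at D135 was built into its selection. AXIN2, SFRP1, NKD1 and NOTUM also fell from D85 to D135, as did 39.7% of all tested loci. AXIN2, NKD1 and NOTUM, like PAX7, passed the filter through D85 and D105 only. The part of satellite cells in the values of these genes was not tested. The sum of 6 smooth muscle and pericyte markers was also lower at D135 than at D85, with 125 to 165 FPKM at D85, 97.7 to 155 at D105 and 84.8 to 104 at D135. By the test 3 of the 6 were lower at D135 than at D85. The pericyte marker RGS5 was higher, from a mean of 3.11 to 30.7 FPKM (log2 2.94, adjusted p = 0.0001255). After scaling 2 were lower and 3 higher, and the sums overlapped. The part of these cells in the values was not tested. Endothelial markers summed to 147 to 174 FPKM at D85, 226 to 239 at D105 and 166 to 207 at D135. They were thus highest at D105 as deposited, like the ligand sum, WNT11 and WNT16, and after scaling D105 and D135 overlapped. Their part was not tested either. The sum of 8 fibroblast markers, 2108 to 3309, 2598 to 6848 and 1560 to 3424 FPKM, overlapped between the days, with 1 of the 8 higher and 1 lower at D135 than at D85 by the test. Sums of tendon markers were 62.6 to 134 FPKM at D85, 63.8 to 354 at D105 and 48.8 to 226 at D135, with the highest in D105 replicate 2 and D135 replicate 3. Cartilage and bone markers (21.6 to 53.4, 16.1 to 179 and 3.64 to 35.5 FPKM), adipocyte markers (1.87 to 15.7, 5.44 to 114 and 13.8 to 71.9) and leukocyte markers (16.9 to 30.9, 18.3 to 31.9 and 17.6 to 20.7) overlapped between the days. From D105 to D135, the falls of SFRP1 and AXIN2 passed without either of D105 replicate 2 and D135 replicate 3, whereas the rise of DKK2 passed without the former (adjusted p = 0.0215) and not without the latter (0.0555). Schwann cell markers summed to 11.0 to 17.7 FPKM at D85, 21.6 to 33.7 at D105 and 21.5 to 48.8 at D135, and the library with the highest sum, D135 replicate 1, also had the highest DKK2. The epidermis markers KRT5 and KRT15 were listed at 0 in 5 and 6 libraries. TP63, the other epidermis marker found, measured 0.819 to 2.35 FPKM and fell from D85 to D135 by 0.49 on the log2 scale (adjusted p = 0.0420, and 0.3895 scaled).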

How the data were processed

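mRNA libraries of the longissimus dorsi were sequenced on Illumina instruments per the labels' protocols. The authors deposited a table of FPKM per assembled or annotated locus for the 9 libraries, and reads were handled with cutadapt, Bowtie2 and TopHat2, per the submitters' processing notes. Their versions, the build, the assembler and the quantification tool were not given in the sources used here, so no coordinates or sequences are printed, and strand use in counting is unknown.

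From the deposited FPKM, log2(FPKM + 1) was computed for loci with at least 1 FPKM in at least 3 libraries and fitted for all 9 libraries with limma 3.58.1 (eBayes with trend) in R 4.3.3. Tests were two-sided, with Benjamini-Hochberg adjustment over 13086 loci and a threshold of 0.05. SE are of log2 differences, and mean ± SD are of FPKM over 3 libraries. The fit was tested on simulated data. Tables were handled with Python 3.11.15 and pandas 2.3.3. The members and gene lists were chosen with earlier results of these data known. Values per library are given for members that passed in any comparison or that had the highest or second highest mean of their role, and 12 other pathway genes were named by the size of their difference between D135 and D85 among those that passed. Values per library of FZD7, FZD2, SFRP4 and RSPO2, and the gene LGR4, were chosen after their values were seen. Values of 0 may be failed estimates. Alternatives were other pseudocounts, filters, scalings (median-of-ratios, quantile normalization, totals without the 50 top loci), no variance trend, library weights, only the 6 libraries compared, a replicate block, summed loci and each library left out. The use of the locus with the fewest 0 values, and leaving out members with doubtful 0 values, were chosen after seeing the data.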

Additional observations from a re-analysis of the deposited data

How the results depend on the processing

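The count of WNT members that passed moved most with scaling and with the filter. Between D105 and D135 it was 15, against 5 with median-of-ratios scaling, 6 with quantile normalization and 7 with a filter of 5 FPKM, which left 13 members to test. Between D85 and D135 it was 14, against 9, 8 and 7. Between D85 and D105 it was 0, against 1 without a filter on low values. The contrast of the intervals had 1 call, lost (0) with a pseudocount of 0.1, with the 5 FPKM filter and with the replicate block. For other pathway genes the 36 calls between D105 and D135 went to 6 with median-of-ratios scaling and 7 with quantile normalization, and the 42 between D85 and D135 to 15 and 20. Leaving out a library gave 9 (without D105 replicate 1; 10 without D105 replicate 3) to 14 member calls between D105 and D135, 12 to 14 between D85 and D135, 0 for D105 against D85 and 0 to 1 for the interval contrast, which had 0 without any D105 library or D135 replicate 2. For the other pathway genes it gave 26 to 35 and 31 to 43. Of the calls, directions turned with median-of-ratios scaling for CTNNB1, 0.17 from D105 and 0.14 from D85, and for the R-spondin receptor LGR4 from D105, 0.035 (adjusted p = 0.890). Counting CTNNB1, 7 members turned from D105 (also AXIN1, FRZB, FZD1, FZD10, FZD6 and WNT5A) and 5 from D85 (also AXIN1, FRZB, FZD4 and WNT11), none of them called after scaling. The cause of these moves was not tested, beyond the fewer members that the 5 FPKM filter leaves. Only the 6 libraries compared cannot give the interval contrast.

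Replicate numbers did not pair the libraries, since deviations of libraries with the same number had correlations of -0.0659 to 0.0605 over 9 pairs. With the replicate block 12 members and 33 other pathway genes passed from D105 to D135, and 13 and 39 from D85 to D135. FPKM carry no read totals, so the counting error of members below 1 FPKM is unknown.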

Other observations

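The table held further loci with member names that the rule did not use. DKK2 had a second locus at 0, 0.795 and 0.493 FPKM at D85, 0.776, 0 and 1.11 at D105, and 11.5, 3.46 and 3.35 at D135. Another locus of DKK2 was listed at 0.894 FPKM in D85 replicate 2, at 1.27 and 1.70 in D105 replicates 1 and 3, and at 4.70 in D135 replicate 3. It was listed at 0 elsewhere. The second locus of DKK2, like the one used, had its highest values in the D135 libraries. A second locus of TCF7L2 was listed at 5.63 FPKM in D85 replicate 2, at 3.39 and 4.41 in D105 replicates 1 and 2, and at 2.499 in D135 replicate 2, with 0 elsewhere, and another was listed at 8.35 FPKM in D105 replicate 2 alone.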
